A study of Mus musculus with 13 samples.

Results

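The genes described are 36 that encode extracellular matrix proteins, the metalloproteinases that cut them, and the inhibitors of those enzymes. They comprise 7 secreted matrix proteins, 6 collagen and laminin chains, 8 secreted and 2 membrane-anchored matrix metalloproteinases, 8 ADAM proteases, 3 TIMPs, the heparan sulphate-cleaving enzyme heparanase (Hpse) and the crosslinking enzyme subunit F13a1. They were chosen by name, with earlier results of these data known, and all 36 were measured in both tables, among 21395 genes in the one and 25003 in the other. Where a table had more than 1 probe set for a gene, the one with the highest mean was used.

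Microarrays measured RNA of mouse eosinophils sorted from the lamina propria of the small intestine, on 13 arrays. The reporter table held 5 mCherry+ and 5 mCherry- samples from mice with an mCherry knock-in at Clec4a4, the gene of a lectin-type inhibitory receptor on myeloid cells. The single table held 1 array for each of 3 sorts: Clec4a4+ and Clec4a4- eosinophils of WT mice, and Clec4a4- eosinophils of Ahr KO mice. Ahr encodes the aryl hydrocarbon receptor, which switches on target genes when it binds ligands from diet or microbes. The purpose stated in the labels was to tell genes of the subsets apart and to find which depend on that receptor. The labels give no age, sex, strain background or copy number of the knock-in allele for any group, and do not say whether the Ahr deletion is in all cells. They call the reporter samples biological replicates but name no mouse, so each p-value rests on the spread among samples that may share a source. All values below are log2 intensities, each table was normalized on its own, and differences were taken only within a table.

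The matrix is the meshwork of collagens, laminins and glycoproteins around cells, made in the gut wall mainly by fibroblasts, smooth muscle and endothelium. Matrix metalloproteinases and ADAMs are zinc proteases that cut this meshwork or shed proteins from cell surfaces, and TIMPs block them. Eosinophils migrate through the matrix and carry proteases of their own, MMP9 among them.

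Sort and tissue markers set the frame for these genes. Clec4a4 was 9.18 ± 0.62 (SD, n = 5) in mCherry+ and 7.52 ± 0.62 in mCherry- samples, and was 9.14 in WT Clec4a4+, 5.56 in WT Clec4a4- and 3.93 in the array labelled Ahr KO. The Ahr probe set did not go with its label, at 11.12 in the array labelled Ahr KO, 11.08 in WT Clec4a4- and 11.11 in WT Clec4a4+. The labels do not say which part of Ahr is deleted, so this probe set checks nothing, and that sample is called by its label throughout. Cyp1b1, a target gene of the receptor, was 9.11 ± 0.57 (SD, n = 5) in mCherry+ and 6.30 ± 0.30 in mCherry- arrays, and 4.92 in WT Clec4a4+, 4.70 in WT Clec4a4- and 4.46 in the array labelled Ahr KO. Of 15 eosinophil markers, 12 lay above the median gene of the reporter table (5.35) and 13 above that of the single table (4.79). Epithelial markers were also present, with 19 of 19 above the median in the reporter table and 15 of 19 in the single table. In such bulk samples, fewer cells of a type and less RNA per cell cannot be told apart.

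Measured against the table's median, 24 of the 36 genes lay above it in the reporter table and 23 in the single table, with 21 above it in both. The 10 genes below it in both tables were Vcan, Mmp3, Mmp8, Mmp12, Mmp13, Mmp19, Adam12, Timp1, Hpse and F13a1. Lamc1, Mmp2 and Timp3 were above it only in the reporter table, and Spp1 and Mmp10 only in the single table. A value below the median may be background, and a difference between such values is given only as a description.

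In the reporter comparison, the ADAM-like protease gene Adamdec1 was the one member past the threshold, and only once arrays of the same replicate number were treated as pairs. Without pairing, limma called 0 of the 36 at an adjusted p under 0.05, against 0.355% of all 21395 genes (0.145% higher and 0.21% lower), and 4 members had an unadjusted p under 0.05, as had 7.34% of all genes. With the replicate number as a block, limma called 1 member higher and 0 lower in mCherry+, against 1.79% of all genes, 1.03% higher and 0.753% lower. In that fit 9 members had an unadjusted p under 0.05, as had 11.8% of all genes. The adjusted p-values are Benjamini-Hochberg values over all genes. The median log2 difference, mCherry+ minus mCherry-, was 0.01 over the 36 genes and -0.01 over all genes. It was 0.10 for the 24 members above the median, where all such genes had 0.00, and -0.12 for the 12 below, where all such genes had -0.02. By sign alone, 20 members were higher and 16 lower in mCherry+.

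The direction was the same in all 5 pairs for 11 members, against 11.9% of all genes. Among members above the median it was the same for 8 of 24, against 16.3% of genes there. Sparc, Adam19 and Adamdec1 were the higher ones, although Sparc read 9.80 on both arrays of replicate 4, and Thbs1, Spp1, Tgfbi, Mmp3, Mmp25, Adam17, Timp3 and F13a1 the lower ones. In 2 members, Spp1 and F13a1, the 2 groups of arrays did not overlap, against 1.91% of all genes. Both lie below the table's median.

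**Figure D1:**
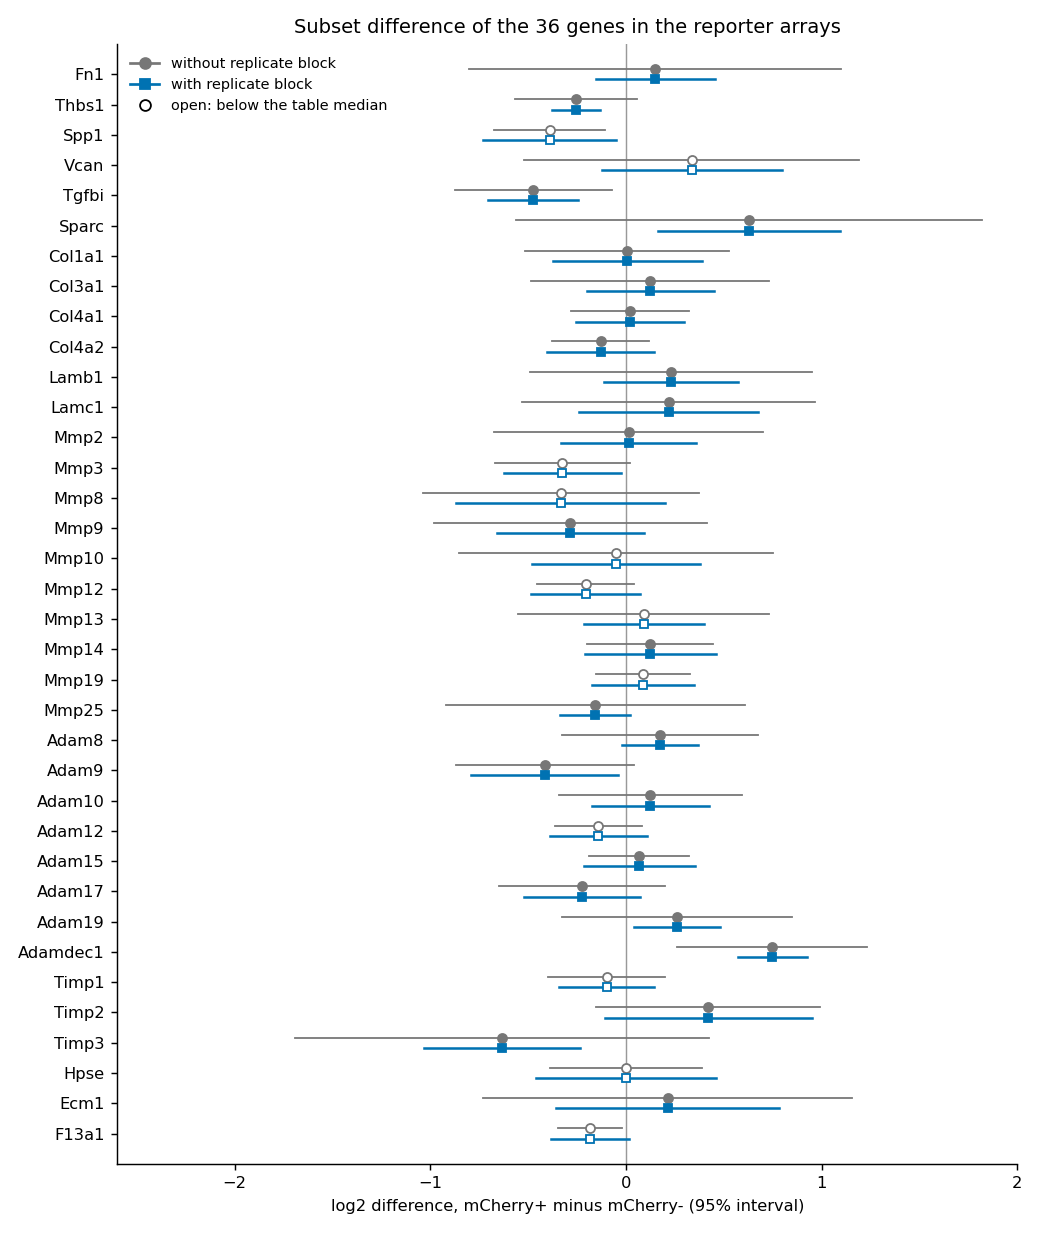
Difference between mCherry+ and mCherry- arrays for each of the 36 genes (x axis, log2 difference with its 95% interval from limma; n = 5 per group), without the replicate block (grey circles) and with it (blue squares). Open symbols mark genes below the table's median. Adamdec1 lies farthest to the right at 0.75, Timp3 farthest to the left at -0.63, and for Adamdec1 the interval narrows from 0.26 to 1.23 without the block to 0.57 to 0.92 with it.

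Among the ADAMs, which shed surface proteins or degrade matrix, Adamdec1 differed most. Adamdec1 encodes a secreted ADAM-like protease found in the intestinal lamina propria. It read 12.30, 11.99, 12.11, 11.46 and 11.91 on mCherry+ arrays 1 to 5, and 11.76, 11.35, 11.41, 10.61 and 10.89 on mCherry- arrays 1 to 5. The 2 groups overlapped, because both arrays of replicate 1 were high and both of replicate 4 low, yet the mCherry+ array was the higher one in each pair, by 0.54, 0.64, 0.69, 0.84 and 1.02. The mean difference was 0.75 (1.68-fold), with a 95% interval of 0.26 to 1.23 and an adjusted p of 0.326 by limma without the block. With the block the interval was 0.57 to 0.92 and limma's adjusted p was 0.00342. Leaving out each pair in turn, the blocked difference was 0.68 to 0.80 and limma's adjusted p 0.00952 to 0.0196.

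The other ADAMs did not pass limma's test in either fit. Adam19, which encodes a membrane-bound sheddase, was 9.51 ± 0.41 (SD, n = 5) in mCherry+ and 9.25 ± 0.52 in mCherry-, higher in 5 of 5 pairs (0.26, adjusted p = 0.957 and, with the block, 0.319). Adam17, the sheddase that releases tumour necrosis factor, was 6.90 ± 0.34 and 7.12 ± 0.25, lower in 5 of 5 pairs (-0.22, blocked adjusted p = 0.586 by limma). Adam9 was 6.65 ± 0.33 and 7.07 ± 0.34, lower in 4 of 5 pairs (-0.41, blocked adjusted p = 0.362 by limma). Adam8, a leukocyte ADAM, was 10.13 ± 0.37 and 9.96 ± 0.41, and its array pairs differed by -0.02 to 0.41. Adam10, Adam12 and Adam15 differed by 0.12, -0.14 and 0.07, with pairs going both ways in each.

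**Figure D2:**
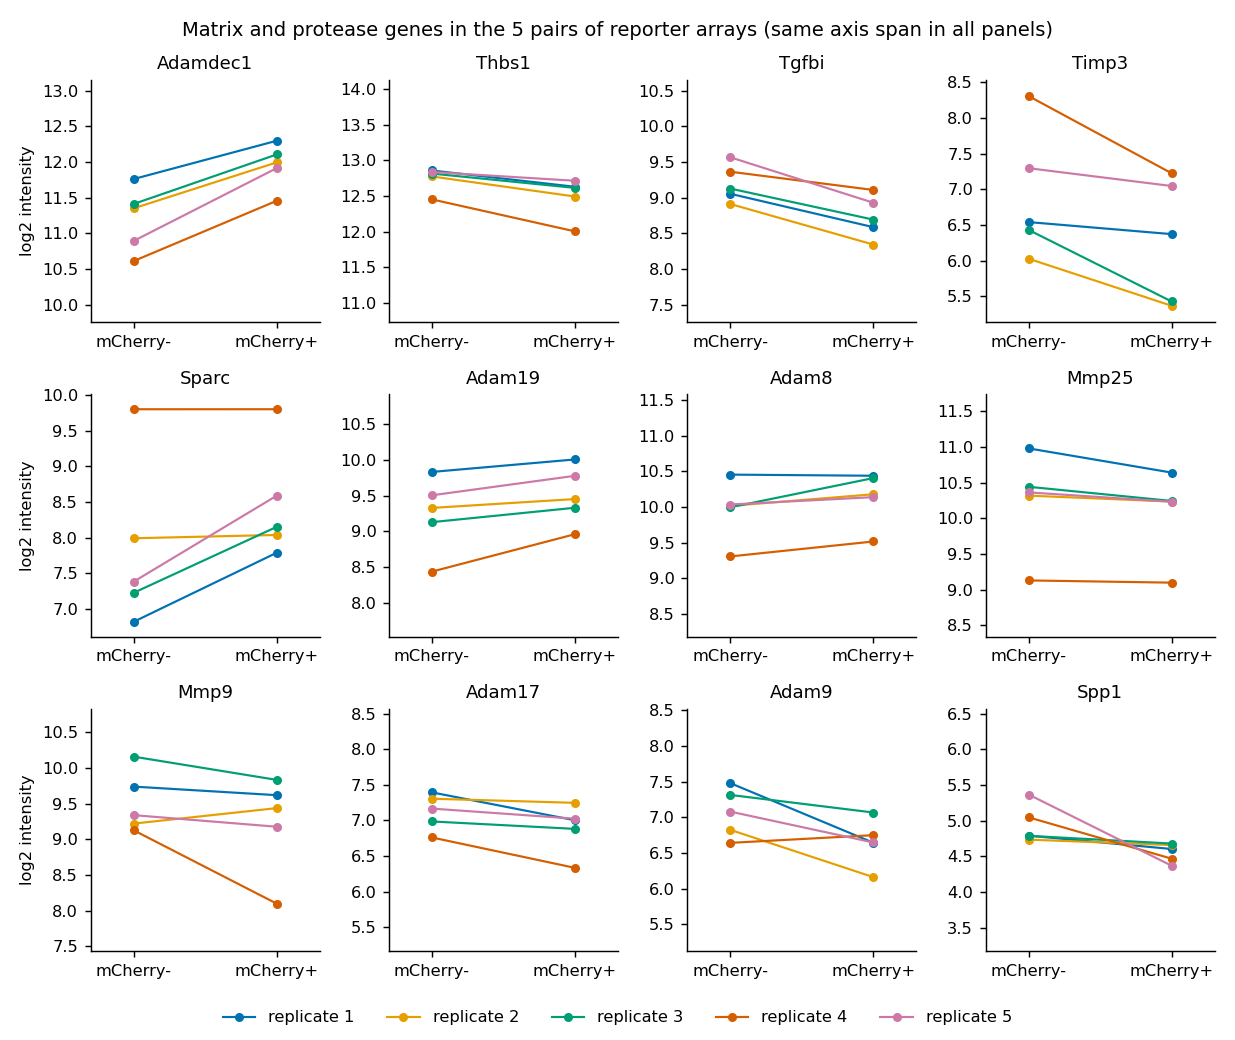
Log2 intensity of 12 of the genes (y axis) in mCherry- and mCherry+ arrays (x axis), with a line joining the arrays of each replicate number and the same axis span in every panel. The mCherry+ end is the higher one of each line for Adamdec1 and the lower one for Thbs1 and Tgfbi, and replicate 4 sits apart in Sparc, Thbs1, Mmp25 and Adam8.

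Of the 7 secreted matrix protein genes, limma called 0, with or without the block. Thbs1 encodes thrombospondin 1, a matricellular protein that binds cells and activates transforming growth factor beta. It read 12.63, 12.49, 12.61, 12.00 and 12.71 on mCherry+ arrays and 12.86, 12.77, 12.81, 12.45 and 12.84 on mCherry- arrays, lower in mCherry+ in each pair. Tgfbi, which encodes a matrix adaptor induced by transforming growth factor beta, read 8.59, 8.34, 8.69, 9.11 and 8.93 on mCherry+ arrays and 9.05, 8.91, 9.13, 9.36 and 9.57 on mCherry- arrays, again lower in each pair. The mean differences were -0.26 for Thbs1 and -0.47 for Tgfbi. By limma the adjusted p-values were 0.787 and 0.545 without the block and 0.0633 and 0.0652 with it. When the blocked limma fit was restricted to genes above the median, the adjusted p-values were 0.0269 for Thbs1 and 0.0384 for Tgfbi. This alternative, added after the data were seen, called 488 of 10829 genes, where the full blocked fit called 382 of 21395.

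Of 11 markers of neutrophils, which carry Mmp9 and Mmp8 protein in granules, limma called 2 lower in mCherry+, S100a9 and S100a8. It did so with the block, against 0.753% of all genes, and without it, against 0.21%. All 11 markers were measured, 5 of them above the median, and their mean was 5.87 to 6.11 on mCherry+ arrays and 6.71 to 7.52 on mCherry- arrays. S100a9, a neutrophil calcium-binding protein gene, was 6.0 ± 0.99 (SD, n = 5) in mCherry+ and 11.03 ± 1.1 in mCherry- arrays (limma's adjusted p = 0.00358, and 0.00013 with the block). Both were named after their values were seen. Without these 2 genes the mean of the other 9 was 5.73 to 6.20 on mCherry+ and 5.93 to 6.46 on mCherry- arrays, with overlap. Retnlg, a resistin-like neutrophil gene and the brightest of the 11, read 12.32, 12.25, 12.17, 11.58 and 12.11 on mCherry+ arrays and 12.33, 12.37, 12.29, 11.75 and 12.18 on mCherry- arrays, also with overlap. By sign alone, 8 of the 11 neutrophil markers were lower in mCherry+. Cxcr2, Mpo and Ngp were higher, by 0.51, 0.19 and 0.22, with Mpo and Ngp below the median in both groups. The mean of the 15 eosinophil markers was 6.84 to 7.55 on mCherry+ and 7.01 to 8.06 on mCherry- arrays. With the block limma called 4 of them lower, against 0.753% of all genes. Without it 1 of them was called, against 0.355% of all genes in either direction. The part of these cells in the differences of Thbs1, Tgfbi and the other members was not tested.

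Sparc encodes osteonectin, a collagen-binding matricellular protein, and its mean difference had the opposite sign. It read 7.79, 8.04, 8.15, 9.80 and 8.59 on mCherry+ arrays and 6.82, 7.99, 7.23, 9.80 and 7.38 on mCherry- arrays. The pairs of replicates 1, 3 and 5 differed by 0.97, 0.93 and 1.21 and those of replicates 2 and 4 by 0.05 and 0.00, for a mean of 0.63 (limma's adjusted p = 0.927, and 0.237 with the block). Spp1, osteopontin, read 4.60, 4.66, 4.68, 4.47 and 4.37 on mCherry+ arrays and 4.79, 4.73, 4.79, 5.05 and 5.37 on mCherry- arrays. The mCherry- arrays were all higher than the mCherry+ arrays, but 9 of the 10 values lay below the table's median (-0.39, limma's adjusted p = 0.427, and 0.336 with the block). Fibronectin (Fn1), versican (Vcan) and Ecm1 differed by 0.15, 0.34 and 0.21, with pairs going both ways. In all 3 the mCherry+ array of replicate 4 was the highest of the 10.

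The 6 collagen and laminin chains, which build fibrils and basement membrane, gave no call in either limma fit. Their differences ran from -0.13 (Col4a2) to 0.23 (Lamb1), and no chain went the same way in all 5 pairs. Their levels varied with the replicate number. Col3a1, a chain of fibrillar collagen, read 5.98, 6.22, 5.88, 7.28 and 6.08 on mCherry+ arrays and 5.90, 5.92, 6.14, 6.84 and 6.02 on mCherry- arrays. Col1a1 read 7.06 and 7.43 on the mCherry+ and mCherry- arrays of replicate 4 and 6.09 to 6.69 on the other 8. The mean level of the 6 chains was 6.68 and 6.54 on the replicate 4 arrays and 5.71 to 6.07 on the other 8.

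Across the 36 genes, the replicate 4 arrays were the highest of both groups in 13 members, against 8.2% of all genes, and the lowest of both in 8, against 12.2%. The 13 were Fn1, Vcan, Sparc, Col1a1, Col3a1, Col4a1, Lamb1, Lamc1, Mmp2, Mmp10, Mmp13, Timp3 and Ecm1. The 8 were Thbs1, Mmp9, Mmp25, Adam8, Adam17, Adam19, Adamdec1 and F13a1. The replicate 1 arrays were the highest of both groups in 4 members (Mmp25, Adam8, Adam19 and Adamdec1), a share near the 11.2% of all genes. The replicate 2 arrays were the lowest of both in 4 (Tgfbi, Adam10, Adam15 and Timp3), against 2.94%. The replicate 3 arrays were the lowest of both in 4 (Lamb1, Mmp3, Mmp10 and Mmp13), against 2.9%. Marker lists of other cells also differed by replicate. The mean of 11 fibroblast and smooth muscle markers, 7 of them above the table's median, was 7.00 and 6.98 on replicate 4 arrays and 5.45 to 6.11 on the other 8. That list includes Col1a1 and Col3a1, and its marker Dcn (decorin) read 11.28 and 11.07 on replicate 4 arrays and 7.96 to 10.38 on the others. The mean of 15 eosinophil markers was 6.84 and 7.01 on replicate 4 arrays and 7.27 to 8.06 on the others. The mean of 19 epithelial markers was 10.77 and 10.87 on replicate 4 arrays, 8.04 and 7.83 on replicate 1 arrays and 9.92 to 10.58 on the other 6. Replicate 4 was thus the highest on this list and replicate 1 the lowest. The mean of 12 macrophage and monocyte markers was 6.88 and 6.82 on replicate 4 arrays and 6.14 to 6.63 on the others. The part of these cells in the values of the 36 genes was not tested.

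**Figure D3:**
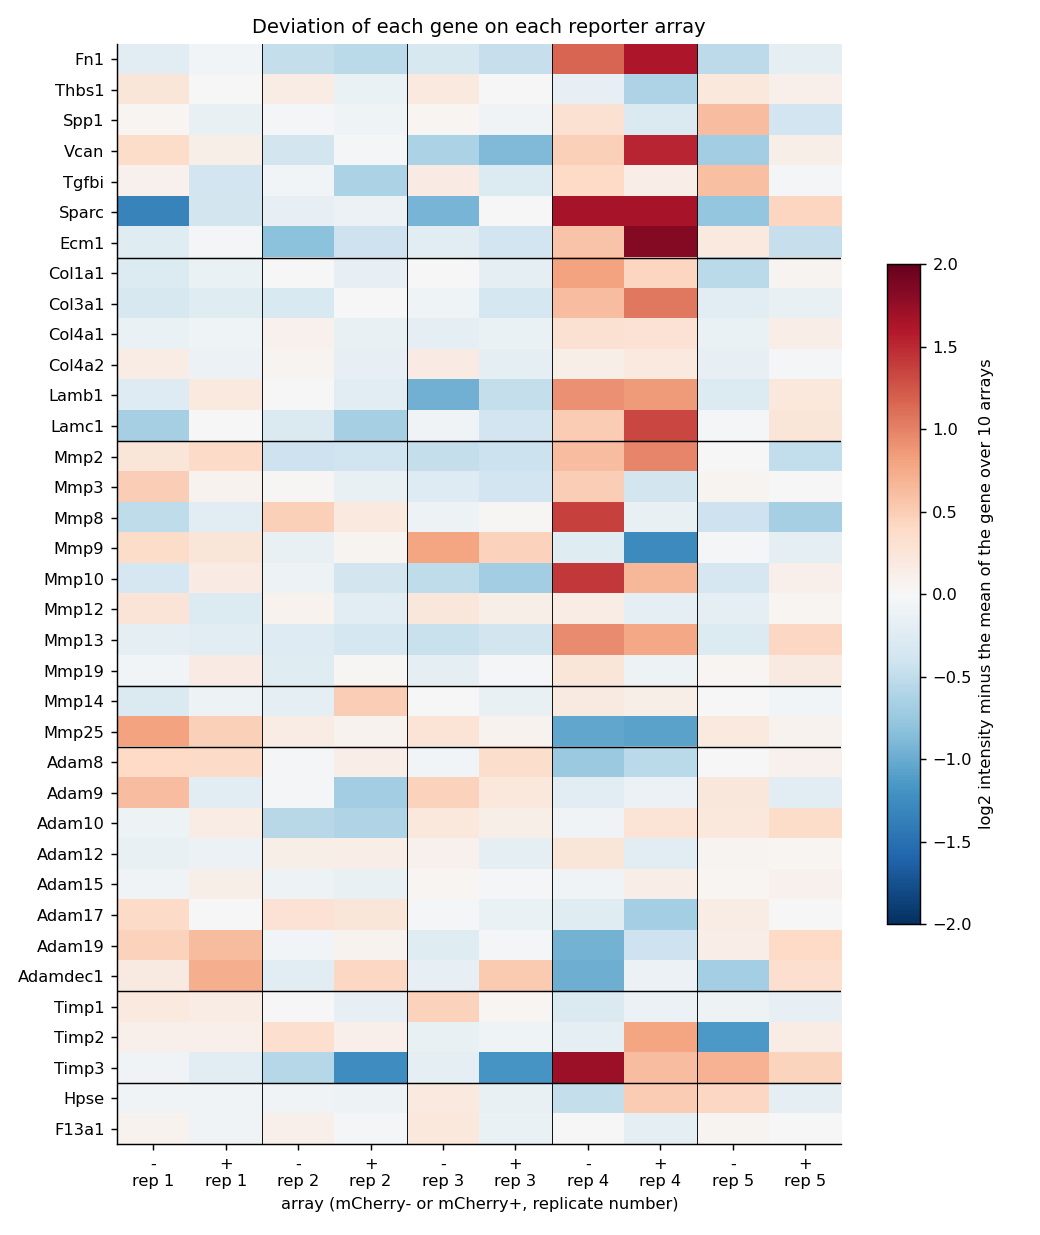
Deviation of each gene on each reporter array from that gene's mean over the 10 arrays (colour, log2), with arrays in columns by replicate number and genes in rows by role. Both columns of replicate 4 are red for Fn1, Sparc, Col1a1, Col3a1 and Lamb1 and blue for Mmp25, Adam8, Adam19 and Thbs1.

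**Figure D4:**
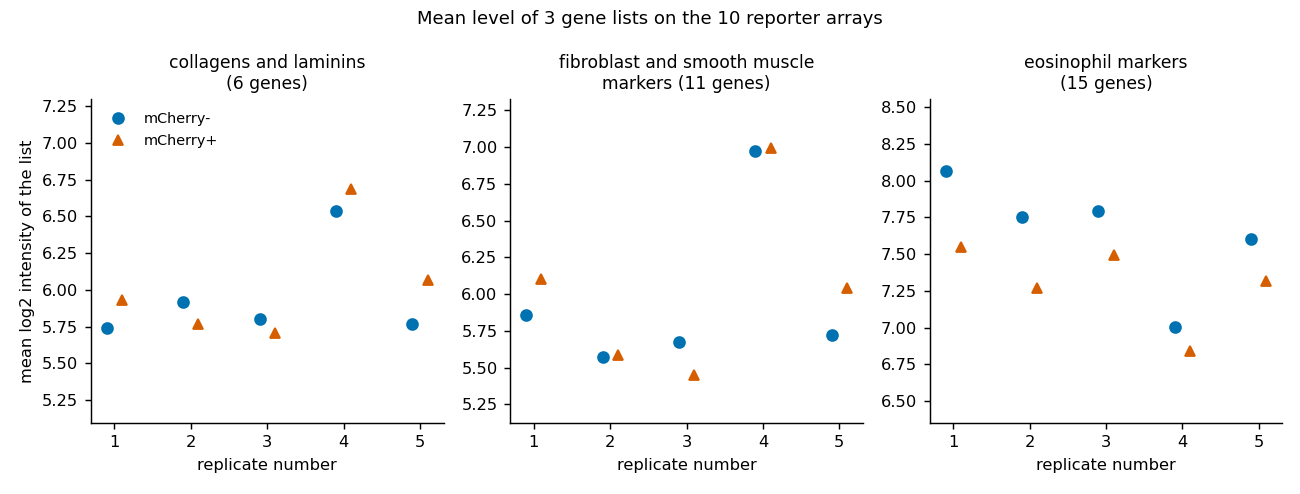
Mean log2 intensity (y axis) of the 6 collagen and laminin chains, 11 fibroblast and smooth muscle markers and 15 eosinophil markers on each reporter array, by replicate number (x axis) and sort (colour and shape). The first and second lists are highest on both replicate 4 arrays, at 6.54 and 6.68 and at 6.98 and 7.00, and the eosinophil markers lowest, at 7.01 and 6.84.

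The secreted matrix metalloproteinases gave no call. Mmp9, the gelatinase of granulocytes, was 9.23 ± 0.68 (SD, n = 5) in mCherry+ and 9.52 ± 0.43 in mCherry- arrays, and the pairs differed by 0.22 to -1.03 with the widest gap in replicate 4 (mean -0.28, blocked adjusted p = 0.584 by limma). Mmp3, stromelysin 1, was lower in 5 of 5 pairs at 3.95 ± 0.21 and 4.28 ± 0.33, below the table's median on every array. Mmp2, the gelatinase of stromal cells, differed by 0.01 on average. It read 7.35 and 6.99 on the mCherry+ and mCherry- arrays of replicate 4 and 5.88 to 6.75 on the other 8. Mmp8, Mmp10, Mmp12, Mmp13 and Mmp19 differed by -0.33, -0.05, -0.21, 0.09 and 0.09 and had means below the median.

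Mmp13, Mmp12, Mmp3, Mmp10 and Mmp8 lie in this order in 1 cluster on chromosome 9, with Mmp1b and Mmp1a on either side of Mmp3. Their start regions are shown because Mmp10 and Mmp13 were among the genes highest on both replicate 4 arrays. Mmp13 lay below the table's median even there, at 4.99 on mCherry+ and 5.17 on mCherry- array 4. Mmp12, Mmp3 and Mmp8 were not among those genes. The lines give 100 bases before the annotated start, 5′ to 3′ on the plus strand (RefSeq, GRCm38.p6). Capitals mark the AP-1 motif TGANTCA, which is its own reverse complement. For Mmp12 the one of 2 annotated starts with a match is shown.
Mmp13: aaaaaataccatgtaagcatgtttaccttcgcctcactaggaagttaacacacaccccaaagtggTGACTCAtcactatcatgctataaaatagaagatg
Mmp12: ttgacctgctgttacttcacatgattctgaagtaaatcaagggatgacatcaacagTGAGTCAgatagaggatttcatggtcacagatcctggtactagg
Mmp3: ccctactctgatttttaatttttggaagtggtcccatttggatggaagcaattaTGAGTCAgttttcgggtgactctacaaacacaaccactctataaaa
Mmp10: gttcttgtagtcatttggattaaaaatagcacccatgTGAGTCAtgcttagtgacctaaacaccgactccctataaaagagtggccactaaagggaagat
Mmp8: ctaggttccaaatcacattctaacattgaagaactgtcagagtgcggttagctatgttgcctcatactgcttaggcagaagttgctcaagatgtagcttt
The windows are chr9:7272414-7272513, chr9:7347274-7347373, chr9:7445722-7445821, chr9:7502242-7502341 and chr9:7558329-7558428. The motif begins 35, 44, 46 and 63 bases before the start in the first 4, and Mmp8 has no match. Counting the 250 bases before a start on both strands, 6.75% of 32851 RefSeq windows hold it, and 6 of the 31 member windows do. These belong to 6 of the 26 members with a window (Mmp3, Mmp10, Mmp12, Mmp13, Adam19 and Ecm1). A match is a string of letters and not a measured site.

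Of the membrane-anchored enzymes, Mmp25, a leukocyte protease tethered by a lipid anchor, read 10.64, 10.24, 10.24, 9.10 and 10.23 on mCherry+ arrays and 10.98, 10.32, 10.44, 9.13 and 10.36 on mCherry- arrays. It was lower in mCherry+ in each pair, and the mean difference was -0.16 (blocked adjusted p = 0.501 by limma), which is small beside the drop of both replicate 4 arrays. Mmp14, the membrane enzyme that activates pro-MMP2, was 5.76 ± 0.26 (SD, n = 5) and 5.64 ± 0.18.

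Of the 3 inhibitors, limma called 0, with or without the block. Timp3, the TIMP that stays bound to the matrix, read 6.37, 5.37, 5.43, 7.23 and 7.05 on mCherry+ arrays and 6.54, 6.03, 6.43, 8.31 and 7.30 on mCherry- arrays. The mCherry+ array was lower in each pair, with differences of -0.17, -0.66, -1.0, -1.08 and -0.25, but replicates 4 and 5 were high in both groups (mean -0.63, limma's adjusted p = 0.901, and 0.159 with the block). Timp2 read 5.82, 5.82, 5.65, 6.52 and 5.87 on mCherry+ arrays and 5.82, 6.06, 5.57, 5.54 and 4.58 on mCherry- arrays, a mean difference of 0.42 in which the pairs of replicates 4 and 5 gave 0.98 and 1.29 and the other 3 gave -0.24 to 0.07. Timp1, the inducible secreted inhibitor, was below the median at 4.09 ± 0.13 (SD, n = 5) and 4.19 ± 0.29. Of the remaining enzymes, Hpse differed by 0.00, and F13a1, the catalytic subunit of factor XIII, ranged from 4.09 to 4.27 on mCherry+ and from 4.30 to 4.49 on mCherry- arrays, without overlap but below the median on every array (-0.18, blocked adjusted p = 0.471 by limma).

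Among the 3 single arrays there is no replicate and therefore no test. A gene was counted where the values differed by 2-fold or more and the higher one reached 4.79. The 3 comparisons share arrays, so they are not independent. Between the WT sorts, 4 of 36 members passed, 1 higher and 3 lower in Clec4a4+, against 1.67% of all genes (0.64% higher and 1.03% lower). Of the 23 members above the median, 2 passed, against 3.02% of such genes. The members' median difference was -0.02, and -0.32 for those above the median, where all such genes had 0.00.

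The 2 members with both values well above the median were secreted matrix proteins. Thbs1 read 11.11 in WT Clec4a4+, 12.28 in WT Clec4a4- and 11.55 in the array labelled Ahr KO, which makes it 2.25-fold lower in Clec4a4+ than in Clec4a4- of WT mice. Tgfbi read 9.10, 10.34 and 9.88 in the same order, 2.36-fold lower in Clec4a4+. Both were also lower in mCherry+ in each reporter pair, by smaller amounts. The other 2 counted members had 1 value below the median. Mmp12, macrophage elastase, read 5.39 in Clec4a4+ and 4.14 and 4.17 in the others, at least 1.51-fold higher against the median of 4.79. In the reporter table Mmp12 had a difference of -0.21 and lay below the median. Timp3 read 3.65, 4.86 and 4.71, and against the median its difference amounts to at least 1.04-fold.

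The array labelled Ahr KO differed from WT Clec4a4- in 1 of 36 members, against 1.36% of all genes, 0.592% higher and 0.772% lower. Of the 23 members above the median it was the 1 that passed, against 2.49% of such genes, and the members' median difference was -0.02. That member was Mmp25, which read 9.82 in the array labelled Ahr KO, 11.22 in WT Clec4a4- and 10.75 in WT Clec4a4+. It was 2.64-fold lower than in WT Clec4a4- and 1.90-fold lower than in WT Clec4a4+. In the reporter table, normalized apart, Mmp25 ranged from 9.13 to 10.98 among the mCherry- arrays alone, a wider span than among these single arrays. Thbs1 and Tgfbi lay between the 2 WT arrays, with differences from WT Clec4a4- of -0.74 and -0.46. Against WT Clec4a4+, where subset and genotype differ together, 1 of 36 members passed, against 0.996% of all genes, 0.5% higher and 0.496% lower. None of the 23 members above the median passed, against 1.77% of such genes. The member that passed was Mmp12, which was at its lower level in both Clec4a4- arrays, and the members' median difference was 0.14.

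Marker lists also differed among the single arrays. In the order WT Clec4a4+, WT Clec4a4- and the array labelled Ahr KO, the neutrophil list averaged 5.56, 5.93 and 6.10, the eosinophil list 7.73, 8.11 and 7.92, and 7 Paneth cell markers, 4 of them above the median, 4.55, 7.21 and 5.10. The fibroblast and smooth muscle list averaged 5.28, 5.40 and 5.57, and 5 erythroid markers, 2 of them above the median, 4.79, 3.74 and 4.93. The part of these cells in the differences between single arrays was not tested.

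**Figure D5:**
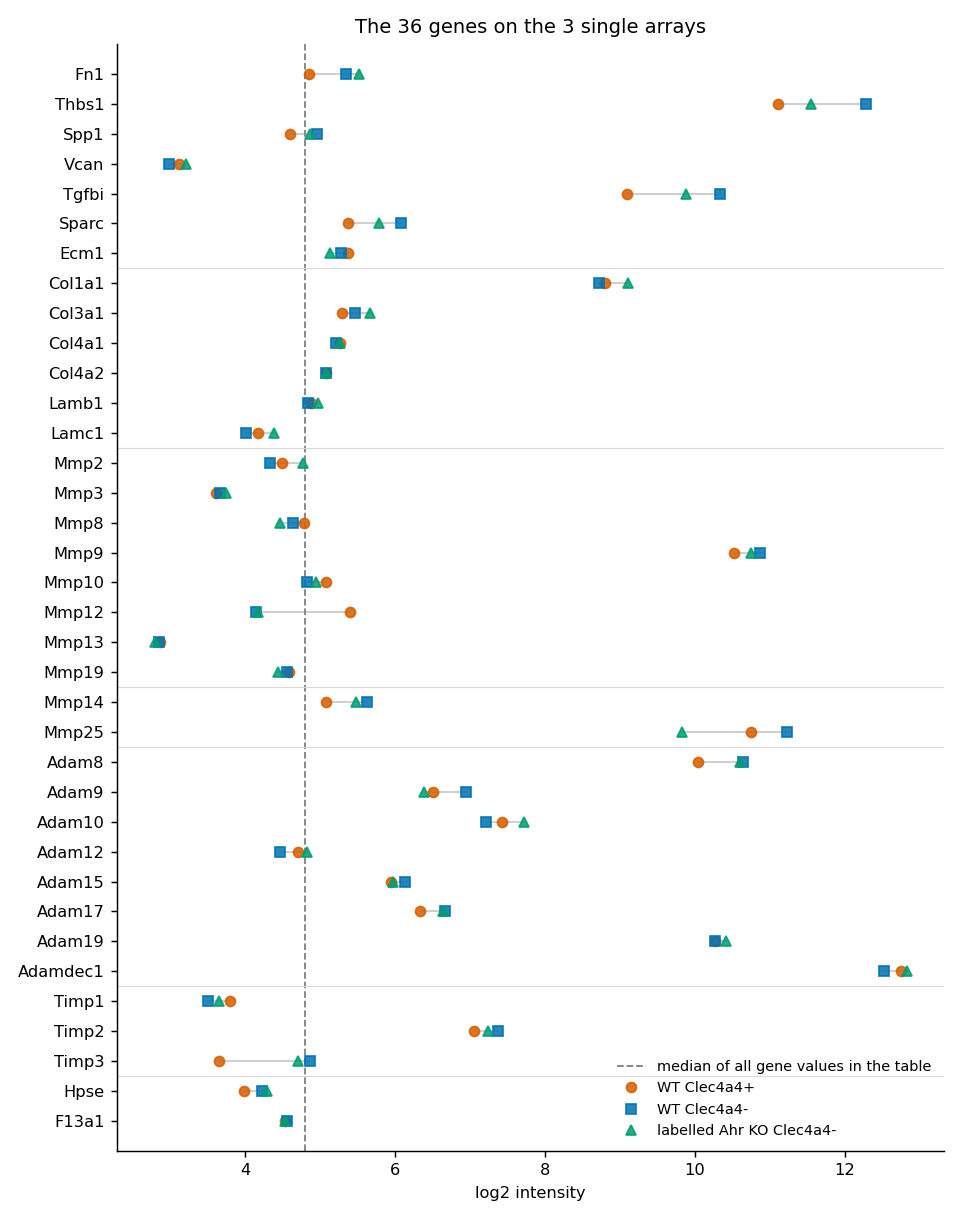
Log2 intensity (x axis) of the 36 genes on the 3 single arrays, 1 array per group (symbols), with the table's median, 4.79, as a dashed line. The widest gaps are those of Mmp25 (9.82 to 11.22), Mmp12, Tgfbi, Timp3 and Thbs1, and for most other genes the 3 symbols lie close together.

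The start regions of Mmp25 and Tgfbi are shown because their levels differed between single arrays that differ by the Ahr label or by subset. They are a choice, since Thbs1, Mmp12 and Timp3 also passed 2-fold and are not shown. Each line gives 250 bases before the annotated start, 5′ to 3′ on the gene's strand (RefSeq, GRCm38.p6), with the core GCGTG bound by the aryl hydrocarbon receptor in capitals.
Mmp25: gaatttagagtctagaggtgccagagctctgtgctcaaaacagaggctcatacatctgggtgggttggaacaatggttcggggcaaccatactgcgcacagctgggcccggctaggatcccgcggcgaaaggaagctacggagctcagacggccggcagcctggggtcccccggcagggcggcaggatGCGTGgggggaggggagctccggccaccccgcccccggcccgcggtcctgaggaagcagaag
Tgfbi: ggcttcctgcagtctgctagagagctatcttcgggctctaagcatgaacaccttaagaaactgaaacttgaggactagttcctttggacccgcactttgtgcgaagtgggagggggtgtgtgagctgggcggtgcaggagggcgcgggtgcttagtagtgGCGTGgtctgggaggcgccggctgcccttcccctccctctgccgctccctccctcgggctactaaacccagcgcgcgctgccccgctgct
The windows are chr17:23645270-23645519 on the minus strand and chr13:56609336-56609585 on the plus strand, and the core begins 62 and 90 bases before the start. The core is common, since 28.2% of the 32851 windows hold it on either strand. It is in 12 of the 31 member windows. These belong to 12 of the 26 members that have a window: Tgfbi, Col4a1, Col4a2, Lamb1, Mmp25, Adam10, Adam15, Adam17, Adam19, Timp1, Timp2 and Timp3. Mmp12 has a window but no core, and for Thbs1 no window was available.

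The remaining members stayed under 2-fold between the single arrays. Adamdec1 read 12.75 in WT Clec4a4+, 12.51 in WT Clec4a4- and 12.83 in the array labelled Ahr KO, the same direction as in the reporter sort at 0.24. Adam19 read 10.26, 10.26 and 10.41, and Mmp9 10.52, 10.87 and 10.75. Adam8 read 10.05, 10.65 and 10.61, a difference of -0.60 between the WT sorts where the reporter sort had 0.17. Sparc read 5.37, 6.08 and 5.79 on its brighter probe set, so that Clec4a4+ was the lower one, opposite to the reporter sort. Its second probe set, at 4.48, 4.45 and 4.34, lay below the median. Col1a1 read 8.80, 8.72 and 9.10 on one probe set and 5.65, 5.63 and 5.73 on the other. Of the 21 members above the median in both tables, 13 had the same sign in the WT and the reporter sort (61.9%), and so had 59.8% of all 9036 such genes.

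On a wider list of 143 other matrix genes, limma without the block called 1 higher and 0 lower in mCherry+, which is 0.699% of the list against 0.355% of all genes. With the block it called 3 higher and 1 lower, 2.8% of the list against 1.79% of all genes. Their median difference was -0.01. Plod3, a lysyl hydroxylase that modifies collagen, was 7.25 ± 0.06 (SD, n = 5) in mCherry+ and 6.39 ± 0.21 in mCherry- arrays with no overlap, a difference of 0.85 (limma's adjusted p = 0.0256, and 0.0266 with the block). On the single arrays Plod3 read 7.22 in WT Clec4a4+, 6.73 in WT Clec4a4- and 7.24 in the array labelled Ahr KO. Ndst1, an enzyme of heparan sulphate synthesis, differed by 0.59 (limma's adjusted p = 0.244, and 0.0428 with the block) and read 8.91, 8.42 and 8.91 on the single arrays.

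Adam28, the next coding gene after Adamdec1 on chromosome 14, differed by 0.69, at 5.51 ± 0.28 (SD, n = 5) in mCherry+ and 4.82 ± 0.30 in mCherry- arrays (limma's adjusted p = 0.162, and 0.0458 with the block). Adam28 lay below the table's median of 5.35 on every mCherry- array, at 4.56 to 5.27, where values may be background. On the single arrays it read 5.83, 5.80 and 5.82. Prg2, which encodes eosinophil major basic protein and stood on the list with the proteoglycans, was 5.90 ± 0.73 and 6.92 ± 0.99, a difference of -1.02 (limma's adjusted p = 0.688, and 0.0434 with the block). Prg2 is also on the eosinophil marker list, so its call is among the eosinophil markers called lower above and is not a separate result. Prg2 read 8.58 in WT Clec4a4+, 9.78 in WT Clec4a4- and 9.85 in the array labelled Ahr KO, 2.30-fold lower in Clec4a4+ than in WT Clec4a4-. Between the WT sorts 2 of the 142 measured list genes passed 2-fold, both lower in Clec4a4+, which is 1.41% of the list against 1.67% of all genes (1.03% lower). Beside Prg2 this was Sparcl1, a relative of Sparc, at 3.56, 5.11 and 4.19, at least 1.25-fold lower. Against WT Clec4a4-, 0 passed in the array labelled Ahr KO, against 1.36% of all genes. Against WT Clec4a4+ 1 did, Prg2 at 2.41-fold higher, against 0.996% of all genes.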

How the data were processed

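The values used were the deposited log2 intensities, made with RMA per the submitters' processing notes (version not given in the sources used here), in 1 table of 10 reporter arrays and 1 of 3 single arrays that were normalized separately. Array medians lay between 5.18 and 5.27 and between 4.73 and 4.75. Probe sets were named by Entrez identifier, symbol or accession, with symbols updated from a RefSeq gene table (GRCm38.p6). The genes named are the 36 members, up to 8 called genes of a list of 143 other matrix genes plus up to 4 per pair of single arrays past 2-fold, Clec4a4, Ahr, Cyp1b1, and up to 2 genes of each marker list. Of the neutrophil list, S100a8, Cxcr2, Mpo and Ngp are named beyond this rule, after their values were seen. The members, lists and tests were chosen with earlier results of these data known.

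Reporter arrays were compared with limma 3.58.1 in R 4.3.3 (intensity trend, robust, two-sided), with Benjamini-Hochberg adjustment over 21395 genes at 0.05. No other covariate was used. Deviations from the group means correlated within every pair of arrays of the same replicate number (0.658, 0.166, 0.171, 0.526 and 0.199). Such correlations between arrays of different numbers were not computed for comparison. The samples were taken as paired by number, whose meaning the labels leave out. The fit with the number as a block is therefore given beside the fit without it. The code of the fit without the block was tested on simulated data with no replicate effect. The fit with the block was not tested in this way. The number of arrays limits the precision.

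Marker lists were averaged per array. In mCherry+ and mCherry- arrays the means were 9.79 and 9.90 for epithelial cells, 9.22 and 8.98 for Paneth cells, 6.04 and 5.96 for fibroblasts and smooth muscle, 5.69 and 5.46 for endothelium, and 6.48 and 6.44 for macrophages. They were 5.98 and 6.99 for neutrophils, 4.91 and 4.87 for dendritic cells, 4.10 and 3.99 for mast cells, 5.65 and 5.43 for B and plasma cells, 5.98 and 5.85 for T cells, NK cells and ILCs, 6.50 and 5.75 for erythroid cells, and 7.30 and 7.64 for eosinophils.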

Additional observations from a re-analysis of the deposited data

Results flagged for a closer look

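In 12 of 72 groups of 5 reporter arrays, 1 array lay far from the other 4 by Dixon's criterion, which chance meets in about 1 of 20 groups. The 72 groups share the same arrays and are not independent, and the share over all genes was not counted. Of the 12 flagged values, 11 were on replicate 4 arrays. Those above the others were Fn1 on mCherry+ array 4 (7.50, others 5.34 to 5.83) and mCherry- array 4 (7.05, others 5.37 to 5.66), and Col3a1 on mCherry+ array 4 (7.28, others 5.88 to 6.22) and mCherry- array 4 (6.84, others 5.90 to 6.14). On mCherry- array 4 the same held for Mmp10 (6.75, others 4.82 to 5.23) and Mmp13 (5.17, others 3.79 to 4.03). On mCherry+ array 4 it held for Timp2 (6.52, others 5.65 to 5.87), Hpse (4.74, others 4.05 to 4.16) and Ecm1 (8.58, others 6.28 to 6.71). Those below the others were Thbs1 on mCherry- array 4 (12.45, others 12.77 to 12.86), Mmp25 on mCherry+ array 4 (9.10, others 10.23 to 10.64) and Adam10 on mCherry+ array 2 (5.83, others 6.54 to 6.80).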

How the results depend on the processing

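With the replicate number as a block, limma called 382 genes in place of 76 and 1 member in place of 0 (Adamdec1), changed no other member's call, and left the members' median difference at 0.01. Restricted to the 10829 genes above the median, limma called 119 genes and the members' median was 0.10. With the block as well it called 488 of the 10829 genes and 3 of the 24 members there, with a median of 0.10. Leaving out arrays gave 29 to 135 genes without the block: 45, 32, 33, 115 and 29 without mCherry+ arrays 1 to 5, 60, 36, 44, 86 and 38 without mCherry- arrays 1 to 5, and 40 and 135 without both arrays of replicates 1 and 4. Leaving out a pair with the block gave 155 to 317. Members called were 0 in each of these 12 fits without the block and 1 in each of the 5 with it. The members' median ranged from -0.094 (without mCherry+ array 4) to 0.069, and with the block from -0.05 to 0.03. Dropping the intensity trend and robust moderation, averaging probe sets, centring arrays or using the series matrix gave 74 to 86 genes and 0 members. At 1.5-fold, 6 members in place of 4 differed between the WT sorts, 1 higher and 5 lower in Clec4a4+. Between the array labelled Ahr KO and WT Clec4a4- 2 did in place of 1, and 4 against WT Clec4a4+, where 2 passed 2-fold with no minimum on the level. The share of all genes at 1.5-fold was not counted. The direction of 22 members held in the reporter fits, and that of 14 turned in some that left out arrays, with no turned value past the threshold. The 14 ranged from -0.14 to 0.21 for Col1a1, -0.12 to 0.29 for Col3a1, -0.049 to 0.10 for Col4a1, -0.22 to 0.43 for Ecm1, -0.23 to 0.46 for Fn1, -0.24 to 0.15 for Hpse, -0.089 to 0.41 for Lamc1, -0.22 to 0.30 for Mmp10, -0.088 to 0.34 for Mmp13, -0.017 to 0.19 for Mmp14, -0.23 to 0.17 for Mmp2, -0.44 to 0.091 for Mmp25, -0.19 to 0.0057 for Timp1 and -0.0023 to 0.60 for Vcan. The fit without both arrays of replicate 4, those with the block on fewer pairs and that with the block on genes above the median were added after seeing the data.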
